A study of Mus musculus with 3 samples.

Results

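Glucose enters a cell through facilitative transporters and is split by a chain of cytosolic enzymes into pyruvate, and transcripts of 10 genes of this route were followed through the cell classes of the mouse forelimb bud. They were the glucose transporters Slc2a1 and Slc2a3, the enzymes Gpi1, Aldoa, Pgk1, Pgam1, Eno1 and Pkm, and the lactate dehydrogenase subunits Ldha and Ldhb. The genes were taken by name from a list that was chosen with earlier results of these data known. All 10 were found by gene identifier among the 15122 genes of the deposited matrix. The data are single-cell RNA counts from forelimb buds of wild-type embryos, with 1 library for each of 3 groups: strain c57bl6.J at E9.5 (called B6_E9.5, E giving the embryonic day), the same strain at E10.5 (B6_E10.5) and strain 129S6.sv at E9.5 (129_E9.5). No allele, transgene or agent is named for any group, and the labels do not say how many embryos were pooled in a library. The 43950 cells carry the authors' 5 cluster numbers, which the marker genes name as limb mesenchyme, ectoderm, muscle progenitor, endothelium and erythroid. Among the 10 leading genes of each cluster by fold, 4 to 6 were markers of the named class and 0 of another of these 5. Markers of further cell types were not counted there, and Pf4, a megakaryocyte marker, was among the 10 of the endothelium cluster. Levels are given as CPM, the unique molecular identifiers (UMIs, which count each captured molecule 1 time) of a gene per 1000000 UMIs of its class in a library. Where 3 values of a gene stand in a row, the first is B6_E9.5, the second B6_E10.5 and the last 129_E9.5.

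In glycolysis, Gpi1 encodes the isomerase of glucose 6-phosphate, Aldoa the aldolase that splits the sugar, Pgk1 an enzyme that makes ATP, Pgam1 and Eno1 the mutase and enolase that follow, and Pkm the pyruvate kinase that makes ATP and pyruvate. Lactate dehydrogenase is a tetramer of subunits encoded by Ldha and Ldhb: Ldha prevails in tissues that release lactate, Ldhb in tissues such as heart that burn it. Early embryonic tissues are known for strong lactate output in the presence of oxygen, and the hypoxia-inducible factors and the MYC family are known activators of many of these genes.

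The members lie on 6 chromosomes of the mouse genome build mm10 (GENCODE M21): Slc2a1 at chr4:119108711-119137983 and Eno1 at chr4:150236721-150248879, both on the plus strand, Slc2a3 at chr6:122727809-122801640 and Ldhb at chr6:142490249-142507957, both on the minus strand, Gpi1 at chr7:34201330-34230336 (minus), Ldha at chr7:46841475-46855627 (plus), Aldoa at chr7:126795234-126800751 (minus), Pkm at chr9:59656368-59679375 (plus), Pgam1 at chr19:41911923-41918660 (plus) and Pgk1 at chrX:106187100-106203699 (plus). The RefSeq promoter table (GRCm38.p6) held 15 start sites of 9 members, and the 250 bases before each were searched on both strands for ACGTG and GCGTG, the core letters of the element that hypoxia-inducible factors bind. Of the 15 windows, 12 held a match, against 38.6% of 32851 windows of the same length over all genes. ACGTG, which overlaps itself on the other strand in the run CACGTG, was in 7 of the 15 against 16.6% of all windows, and GCGTG in 7 against 28.2%. Windows of Eno1 and of Aldoa overlap each other. The windows of the lactate dehydrogenase pair, which lay in opposite directions between stages, and of Eno1 and Pgk1 are shown 5′ to 3′ on the gene's strand, each ending at the base before the start site, with matches on either strand in capitals. Of the 2 Ldha windows the first is shown (chr7:46845554-46845803, plus); its 5 matches of ACGTG lie at 3 places, since CACGTG holds a match on each strand, while the other (chr7:46846832-46847081) has 0 of ACGTG and 1 of GCGTG. Pgk1 has 2 of ACGTG (chrX:106186850-106187099, plus), the second of 3 Eno1 windows has 2 of GCGTG (chr4:150236947-150237196, plus) and Ldhb has 1 of GCGTG (chr6:142507958-142508207, minus).
Ldha: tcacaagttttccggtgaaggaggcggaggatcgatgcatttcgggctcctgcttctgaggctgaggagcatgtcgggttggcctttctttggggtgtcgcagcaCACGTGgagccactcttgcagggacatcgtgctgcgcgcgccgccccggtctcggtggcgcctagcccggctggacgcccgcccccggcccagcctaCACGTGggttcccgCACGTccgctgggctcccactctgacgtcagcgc
Pgk1: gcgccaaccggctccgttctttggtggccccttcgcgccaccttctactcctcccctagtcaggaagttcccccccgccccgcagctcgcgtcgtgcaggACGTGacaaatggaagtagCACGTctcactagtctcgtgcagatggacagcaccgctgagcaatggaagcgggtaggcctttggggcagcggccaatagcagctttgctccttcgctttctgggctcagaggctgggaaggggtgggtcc
Eno1: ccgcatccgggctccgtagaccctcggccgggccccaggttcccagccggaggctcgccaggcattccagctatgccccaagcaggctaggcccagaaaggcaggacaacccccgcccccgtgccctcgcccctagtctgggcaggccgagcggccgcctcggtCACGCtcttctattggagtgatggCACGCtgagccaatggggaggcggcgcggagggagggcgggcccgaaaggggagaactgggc
Ldhb: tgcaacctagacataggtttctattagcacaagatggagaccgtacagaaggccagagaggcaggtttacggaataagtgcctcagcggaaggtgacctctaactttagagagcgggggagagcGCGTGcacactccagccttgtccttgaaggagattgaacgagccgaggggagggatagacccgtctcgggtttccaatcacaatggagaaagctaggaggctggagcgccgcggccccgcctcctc
The window of Gpi1 held 0 matches. A match is a run of letters, and no binding was measured here.

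The libraries held 12773 cells (B6_E9.5), 18957 cells (B6_E10.5) and 12220 cells (129_E9.5), with 93029510 to 124388358 UMIs each and medians of 7623, 5710 and 7348 UMIs per cell. With 1 library per group, a difference between stages or strains has no replicate check and no test, and its interval covers counting error only. Cells under 2000 UMIs made up 30.8%, 10.1% and 3.49% of these libraries. The erythroid class of B6_E9.5 stood apart: 794 of its 951 cells had under 2000 UMIs, and in them haemoglobin transcripts were 4.17% of UMIs, against 37.6% in its 157 deeper cells. The endothelium class of B6_E10.5 also held markers of macrophages and other myeloid cells, with 10 of 10 detected at a summed 1420.5 CPM against 35.8 CPM in B6_E9.5 (5 of 10, C1qa, C1qb and C1qc at 0) and 19.7 CPM in 129_E9.5 (1 of 10), and of megakaryocytes at 1413 CPM against 243 and 293 CPM. The muscle progenitor class of 129_E9.5 held markers of neurons at 779.8 CPM against 7.28 CPM in B6_E9.5 and 12.0 CPM in B6_E10.5. Their part in the values of these classes was not tested. Barcodes of 1728 cells occurred in more than 1 library, and cells were told apart by library and barcode. Doublets were not called.

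Both transporters were at least 2-fold above mesenchyme in ectoderm and in endothelium in 3 of 3 libraries, and no enzyme was. Of the enzymes, Ldhb lay as far below mesenchyme in endothelium. In the erythroid class Pgam1, Eno1, Pkm and Ldhb did so, for totals that include haemoglobin. Slc2a1, the transporter of basal glucose uptake that is known from red cells and brain endothelium, stood at 225, 181 and 248 CPM in endothelium, at 71.5, 55.9 and 61.5 CPM in ectoderm and at 23.3, 19.9 and 24.9 CPM in mesenchyme. Endothelium was highest and ectoderm next in 3 of 3 libraries, and the ranges of these 3 classes over the libraries did not overlap. Within a library endothelium was 9.68, 9.06 and 9.93-fold above mesenchyme, and ectoderm 3.07, 2.81 and 2.47-fold. Muscle progenitors, at 23.6, 18.8 and 25.9 CPM, lay on both sides of mesenchyme. Erythroid cells stood at 54.7, 27.6 and 45.8 CPM. Without haemoglobin transcripts in the total they stood at 80.3, 56.7 and 95.6 CPM, above ectoderm at 71.6, 56.0 and 61.6 CPM. The second place of ectoderm thus depends on the total used. The clusters were made from the same cells, so that these differences between classes are a description without a test.

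Slc2a3, the high-affinity transporter known from neurons and trophoblast, was a transcript of the ectoderm. It stood there at 129, 214 and 159.8 CPM, while mesenchyme had 5.20, 3.64 and 3.47 CPM and muscle progenitors 4.66, 4.18 and 4.57 CPM. Ectoderm was 24.8, 58.8 and 46.0-fold above the mesenchyme of the same library, for a mean of 167 ± 43.1 CPM (SD, n = 3 libraries) against 4.10 ± 0.953 CPM. Endothelium came next at 35.2, 23.3 and 23.0 CPM, 6.76, 6.39 and 6.62-fold above mesenchyme. The ectodermal transcripts were uneven among cells. With each cell of at least 2000 UMIs thinned to 2000 UMIs, 21.9%, 24.1% and 20.1% of ectodermal cells had a Slc2a3 UMI, against 0.974%, 0.628% and 0.625% of mesenchymal cells, and the variance of the thinned count was 1.60, 3.01 and 1.77 times its mean in ectoderm. Thinning left out 122, 114 and 96 ectodermal and 2697, 1621 and 266 mesenchymal cells. Without thinning, the shares were 52.2, 42.7 and 37.7% in ectoderm, at median depths of 10410, 5732 and 4747 UMIs, and 4.84, 2.04 and 2.58% in mesenchyme, at 8067, 5422 and 7463 UMIs. Markers of neurons summed to 62.7, 59.3 and 90.2 CPM in the ectoderm and those of neural crest to 36.3, 248 and 55.7 CPM; their part in Slc2a3 was not tested.

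**Figure D1:**
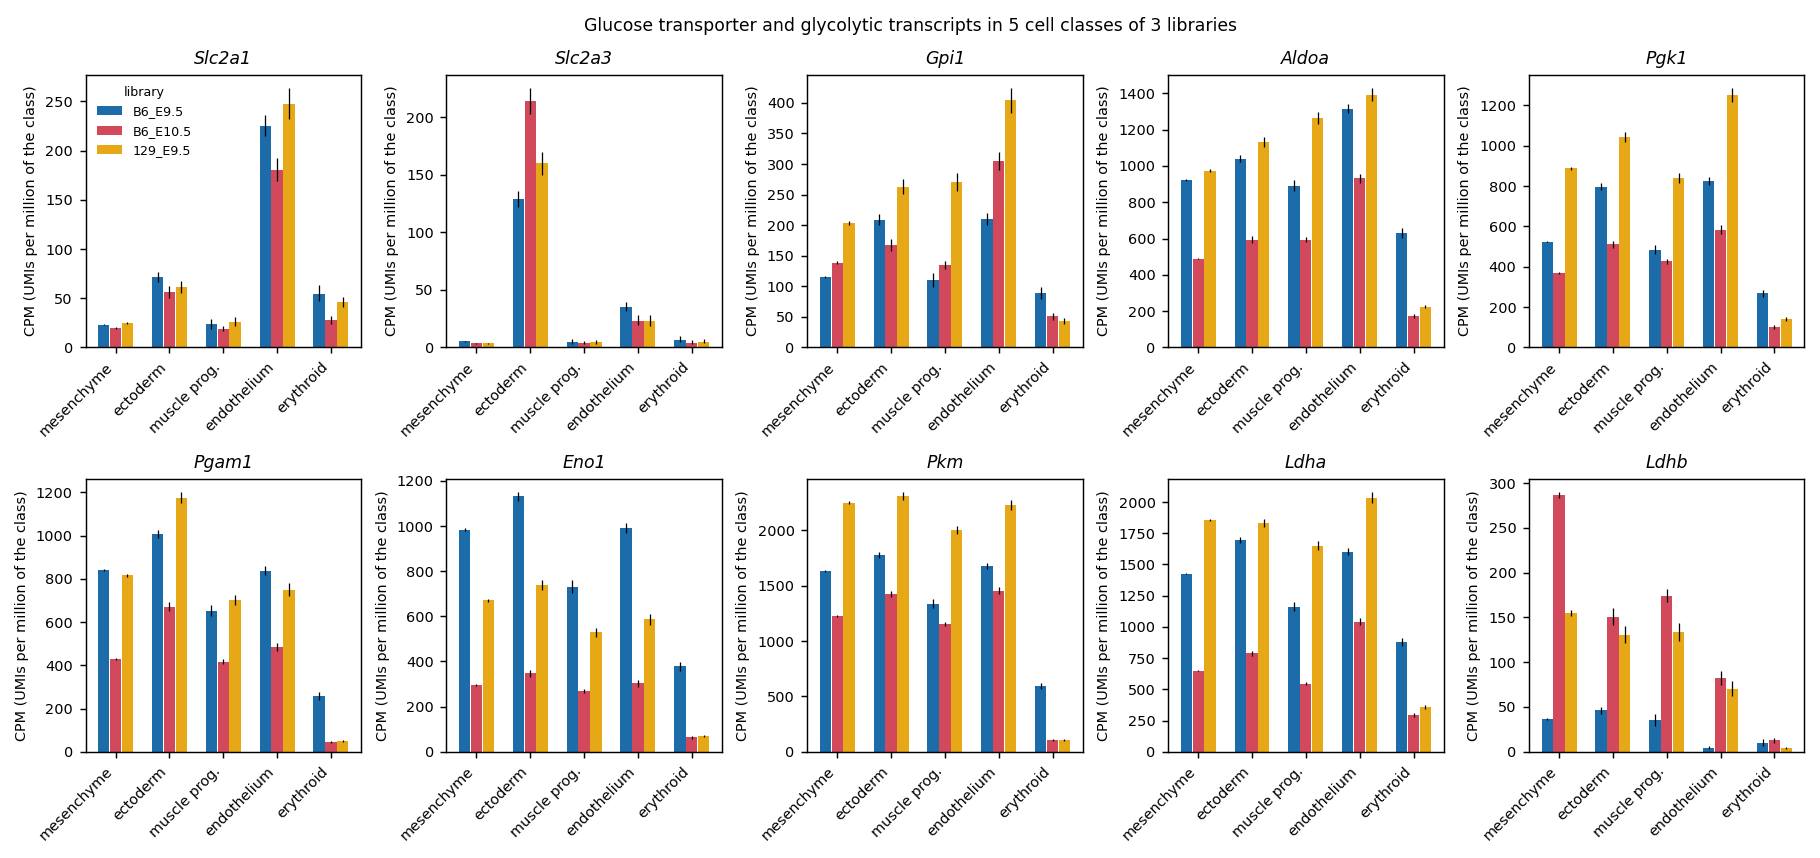
Level of each of the 10 transcripts (y axis, CPM) in the 5 cell classes (x axis) of the 3 libraries (bar colours), with exact Poisson 95% intervals that cover counting error only. Slc2a1 is highest in endothelium (181 to 248 CPM) and Slc2a3 in ectoderm (129 to 214 CPM), while Eno1 lies at 268 to 348 CPM in the 4 classes other than erythroid in B6_E10.5.

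Counted over the members, 2 of 10 were at least 2-fold above mesenchyme in 3 of 3 libraries in ectoderm (Slc2a1 and Slc2a3), where 5.81% of 6319 genes were, and 0 were as far below, against 2.9% of genes. Endothelium had the same 2 members above, against 10.3% of 6541 genes, and 1 below, Ldhb, against 5.12%. Muscle progenitors had 0 members on either side, where 1.1% of 5979 genes were higher and 1.47% lower. In the erythroid class 4 members were lower (Pgam1, Eno1, Pkm and Ldhb), against 46.8% of 5861 genes, and 0 higher, against 3.17%. These erythroid counts and shares hold for totals that include haemoglobin. Without it Slc2a1 in the erythroid class, at 80.3, 56.7 and 95.6 CPM, was past 2-fold above mesenchyme, at 23.3, 19.9 and 24.9 CPM. Eno1 (556 against 986 CPM) and Pkm (874 against 1633 CPM) in B6_E9.5 were then within 2-fold of mesenchyme, while Pgam1 and Ldhb stayed lower. Of the enzymes, Gpi1 was nearest to the threshold in endothelium, at 1.83, 2.20 and 1.98-fold of mesenchyme. Aldoa was 1.43, 1.90 and 1.43-fold and Pgk1 1.57, 1.59 and 1.41-fold of mesenchyme there, above it in every library. Pgam1, Eno1 and Pkm in endothelium lay between 0.874 and 1.18-fold of mesenchyme, and in ectoderm between 1.03 and 1.56-fold. Pgam1 and Eno1 were highest in ectoderm in 3 of 3 libraries, and Gpi1, Aldoa and Pgk1 in endothelium. In muscle progenitors Pgam1, Eno1, Pkm, Ldha and Ldhb were below mesenchyme in every library, down to 0.608 of it for Ldhb in B6_E10.5.

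The E10.5 library had lower levels of Aldoa, Pgk1, Pgam1, Eno1, Pkm and Ldha than the E9.5 library of the same strain in each of the 5 classes. Summed over the 10 genes, mesenchyme had 6510.5, 3908 and 7841 CPM, ectoderm 7902, 4924 and 8844 CPM, muscle progenitors 5431, 3731 and 7419 CPM and endothelium 7726, 5389 and 8989 CPM. B6_E10.5 was the lowest library in these 4 classes, and 129_E9.5 the highest. Eno1 had the lowest ratio between stages of the 10 in each of the 4, Ldha came next in 3 of them, and Ldhb went the other way. In the mesenchyme 4 of the 9 members above the floor of 20 CPM and 50 UMIs were at least 1.5-fold lower (Aldoa, Pgam1, Eno1 and Ldha), against 8.87% of 5685 genes, and 1 was as much higher (Ldhb), against 11.6%. Slc2a3 was under the floor. In ectoderm 5 of 10 were lower (the same 4 and Pgk1), against 4.98% of 5879 genes, and 2 higher (Slc2a3 and Ldhb), against 6.46%. Muscle progenitors had 4 of 9 lower (Aldoa, Pgam1, Eno1 and Ldha), against 11.9% of 5687 genes, and 1 higher (Ldhb), against 7.46%. Endothelium had 4 of 10 lower (Slc2a3, Pgam1, Eno1 and Ldha), against 10.2% of 5792 genes, and 1 higher (Ldhb), against 9.44%. The median log2 ratio of the members above the floor was -0.51 in mesenchyme, -0.47 in ectoderm, -0.33 in muscle progenitors and -0.50 in endothelium, beside 0.02, -0.01, -0.07 and -0.06 over all genes there. Pgam1 in ectoderm, with a ratio of 0.666, and Aldoa in muscle progenitors, with 0.665, were just inside the threshold, and Pgk1 in mesenchyme, with 0.701, just outside. Since the members were chosen with earlier results of these data known, their counts beside the shares over all genes are a description.

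**Figure D2:**
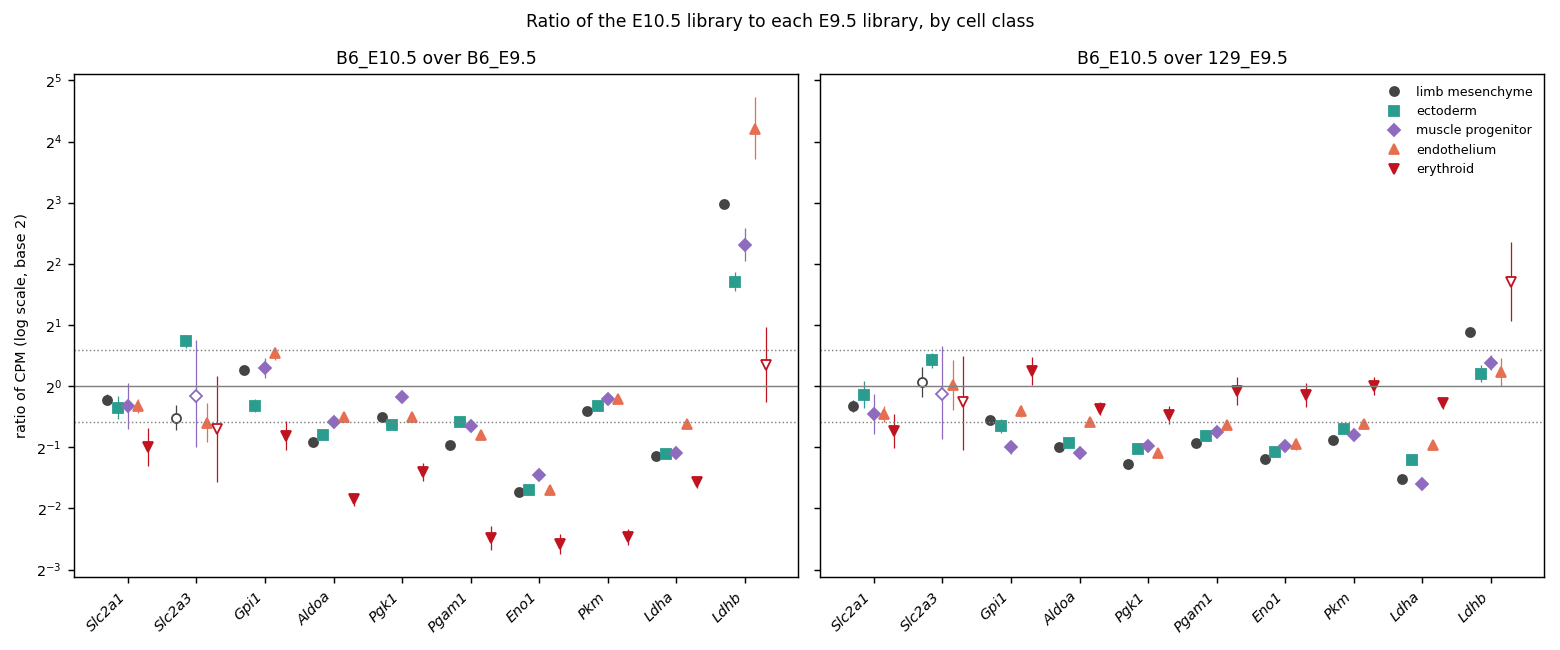
Ratio of CPM of B6_E10.5 over B6_E9.5 (left) and over 129_E9.5 (right) on a base 2 log scale for the 10 genes (x axis) in the 5 cell classes (symbols), with exact 95% counting intervals; open symbols mark genes under the floor and dotted lines the 1.5-fold thresholds. Ldhb lies above 1 in the 4 classes other than erythroid in both panels, and Eno1, Ldha, Aldoa, Pgk1, Pgam1 and Pkm lie below 1 there.

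Eno1 was about as much lower in mesenchyme, ectoderm and endothelium, and less so in muscle progenitors. It stood at 984, 295 and 671 CPM in the mesenchyme, at 1131, 348 and 738 CPM in ectoderm, at 730.3, 268 and 529.6 CPM in muscle progenitors and at 992, 304 and 586 CPM in endothelium. The E10.5 value was below both E9.5 values in each. It was 3.34-fold lower (95% interval 3.29 to 3.38) than in B6_E9.5 in mesenchyme, 3.25-fold lower in ectoderm, 2.73-fold lower (95% interval 2.59 to 2.88) in muscle progenitors and 3.26-fold lower in endothelium, and the interval of muscle progenitors lay apart from the other 3. The 2 libraries of E9.5 differed as well: Eno1 in 129_E9.5 was 1.47-fold, 1.53-fold, 1.38-fold and 1.69-fold lower than in B6_E9.5 in the same order of classes. Counts of Eno1b, a near-identical copy on which reads of Eno1 could be split, stood at 41.9, 13.8 and 33.6 CPM in mesenchyme and followed the same order, so that the split between both is uncertain.

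Ldha stood at 1428, 649 and 1855 CPM in the mesenchyme and at 1694, 788 and 1832 CPM in ectoderm. Both E9.5 libraries were above the E10.5 library, which was 2.20-fold lower (95% interval 2.18 to 2.22) than B6_E9.5 in mesenchyme and 2.15-fold lower in ectoderm. Muscle progenitors, at 1160.3, 545 and 1649 CPM, gave 2.13-fold. In endothelium Ldha stood at 1601, 1043 and 2035 CPM, for 1.54-fold lower (95% interval 1.49 to 1.59), and this interval lay apart from those of the other 3 classes. Aldoa followed the same order of classes, with 922, 489.9 and 975 CPM in mesenchyme and at 1316, 931 and 1394 CPM in endothelium: the E10.5 level was 0.531 times that of B6_E9.5 in mesenchyme, 0.571 times in ectoderm, 0.665 times in muscle progenitors and 0.708 times in endothelium. Pgam1 stood at 840.2, 429.6 and 816 CPM in mesenchyme and at 1008, 671 and 1175 CPM in ectoderm, with E10.5 levels of 0.511, 0.666, 0.637 and 0.576 times those of B6_E9.5 in mesenchyme, ectoderm, muscle progenitors and endothelium. Ldha, Aldoa and Pgam1 also have processed copies in the genome, so that a part of their reads may be left out or split.

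Pgk1, Pkm and the transporter Slc2a1 had smaller ratios between stages in mesenchyme and muscle progenitors. Pgk1 stood at 525, 368 and 887 CPM in mesenchyme and at 827, 584 and 1252 CPM in endothelium, 1.43-fold lower at E10.5 than in B6_E9.5 in the first and 1.41-fold in the second; it was 1.56-fold lower in ectoderm and 1.14-fold in muscle progenitors. Pkm stood at 1631, 1228 and 2251 CPM in mesenchyme and at 1776, 1424 and 2309 CPM in ectoderm, with ratios from 1.15-fold lower in endothelium to 1.33-fold lower in mesenchyme. Slc2a1 was 1.17-fold lower (95% interval 1.10 to 1.24) in mesenchyme, 1.28-fold lower in ectoderm and 1.25-fold in endothelium; in muscle progenitors its interval, a ratio of 0.616 to 1.04, included 1. For these 3 genes, as for Aldoa, Pgam1, Eno1 and Ldha, E10.5 was the lowest of the 3 libraries in 4 of 4 classes. Gpi1 did not follow them. It stood at 115, 139 and 204 CPM in mesenchyme, 110.1, 135 and 270.3 CPM in muscle progenitors and 210.5, 305 and 404 CPM in endothelium, and in these E10.5 lay between the E9.5 libraries. In ectoderm it stood at 209, 167 and 263 CPM, where E10.5 was lowest.

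Slc2a3 went opposite ways in ectoderm and endothelium. In ectoderm, at 129, 214 and 159.8 CPM, B6_E10.5 was 1.66-fold higher (95% interval 1.54 to 1.79) than B6_E9.5 and 1.34-fold higher than 129_E9.5. In endothelium, at 35.2, 23.3 and 23.0 CPM from 290, 120 and 85 UMIs, B6_E10.5 was 1.51-fold lower (95% interval 1.22 to 1.89) than B6_E9.5 and 1.01-fold of 129_E9.5. The size of the ectodermal ratio moved with the choice of cells: it was 2.37 without cells that carried markers of another class, which left 247 of 1009 ectodermal cells in B6_E9.5, and 1.32 in cells of 4000 to 8000 UMIs. Markers of neural crest were higher in the ectoderm of B6_E10.5 too (248 CPM against 36.3 and 55.7 CPM), and their part was not tested.

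Ldhb was the one member that was highest in E10.5 in 4 of 4 classes. It stood at 36.3, 287 and 155 CPM in the mesenchyme, at 35.2, 174 and 133 CPM in muscle progenitors, at 46.1, 151 and 131 CPM in ectoderm and at 4.49, 82.4 and 70.1 CPM in endothelium. B6_E9.5 was far below the other libraries in each class. Against it, B6_E10.5 was 7.91-fold higher (95% interval 7.64 to 8.19) in mesenchyme, 4.95-fold higher in muscle progenitors, 3.27-fold in ectoderm and 18.4-fold higher (95% interval 13.1 to 26.4) in endothelium, the last from 37 UMIs in B6_E9.5. Much of this stood between the strains at E9.5 as well: 129_E9.5 was 4.27-fold above B6_E9.5 in mesenchyme, 2.84-fold in ectoderm, 3.79-fold in muscle progenitors and 15.6-fold in endothelium. Against 129_E9.5, B6_E10.5 was 1.85-fold higher (95% interval 1.81 to 1.89) in mesenchyme, and 1.15-fold, 1.31-fold and 1.18-fold higher in ectoderm, muscle progenitors and endothelium.

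The other E9.5 library gives a second base for the stage, though strain and stage then change together. Against 129_E9.5, B6_E10.5 was at least 1.5-fold lower in 6 of 9 members in mesenchyme (Aldoa, Pgk1, Pgam1, Eno1, Pkm and Ldha), where 9.55% of 5673 genes were, in 7 of 10 in ectoderm (those 6 and Gpi1), against 7.02% of 5853, in 7 of 9 in muscle progenitors (the same 7), against 13.6% of 5615, and in 5 of 10 in endothelium (Pgk1, Pgam1, Eno1, Pkm and Ldha), against 7.71% of 5745. Ldhb in mesenchyme was the 1 member as much higher, where 11% of genes were; ectoderm, muscle progenitors and endothelium had 0, against 7.81%, 9.31% and 7.26% of genes. The comparison shares the E10.5 library with that in strain c57bl6.J. Between the E9.5 libraries, 129_E9.5 over B6_E9.5 had 0 members lower and 3 higher in mesenchyme (Gpi1, Pgk1 and Ldhb), where 10% and 12% of 5503 genes were lower and higher, and the same counts and genes in muscle progenitors, where 12.9% and 12.7% of 5646 were. Ectoderm had Eno1 lower and Ldhb higher, against 8.12% and 8.36% of 5790 genes, and endothelium Slc2a3 and Eno1 lower and Gpi1, Pgk1 and Ldhb higher, against 8.9% and 10.7% of 5687. Strain, exact age and library cannot be told apart in these values.

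In B6_E9.5 the level of the enzymes depended on the depth of the cell. Its mesenchymal cells under 2000 UMIs (2697 cells) had 8404 CPM of the 10 genes, those of 4000 to 8000 UMIs (1535 cells) 4508 CPM and those of at least 16000 UMIs (3113 cells) 7013 CPM. In B6_E10.5 the same bins held 3168, 3761 and 3724 CPM, and in 129_E9.5 6057, 7380.0 and 7896 CPM. B6_E9.5 was above B6_E10.5 in all 5 bins. The gap was smallest in cells of 4000 to 8000 UMIs, a window chosen after the data were seen, where 2 of the mesenchymal members (Eno1 and Ldha) stayed at least 1.5-fold lower at E10.5, with Eno1 at 670.4 against 288 CPM and Ldha at 966 against 577 CPM. Pkm there was at 1123 against 1171 CPM, and its ratio of E10.5 over B6_E9.5 was above 1 in this window in each of the 5 classes (1.04 in mesenchyme, 1.18 in ectoderm, 1.10 in muscle progenitors, 1.28 in endothelium and 1.26 in erythroid cells). Slc2a1 (1.35) and Gpi1 (1.09) in ectoderm, Aldoa (1.03) and Pgk1 (1.01) in muscle progenitors and Gpi1 (1.56) in erythroid cells also lay above 1 there, where over all cells they lay below, while Eno1 and Ldha stayed below 1 in all 5 classes. In that window Eno1 in 129_E9.5, at 638 CPM, lay close to B6_E9.5.

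**Figure D3:**
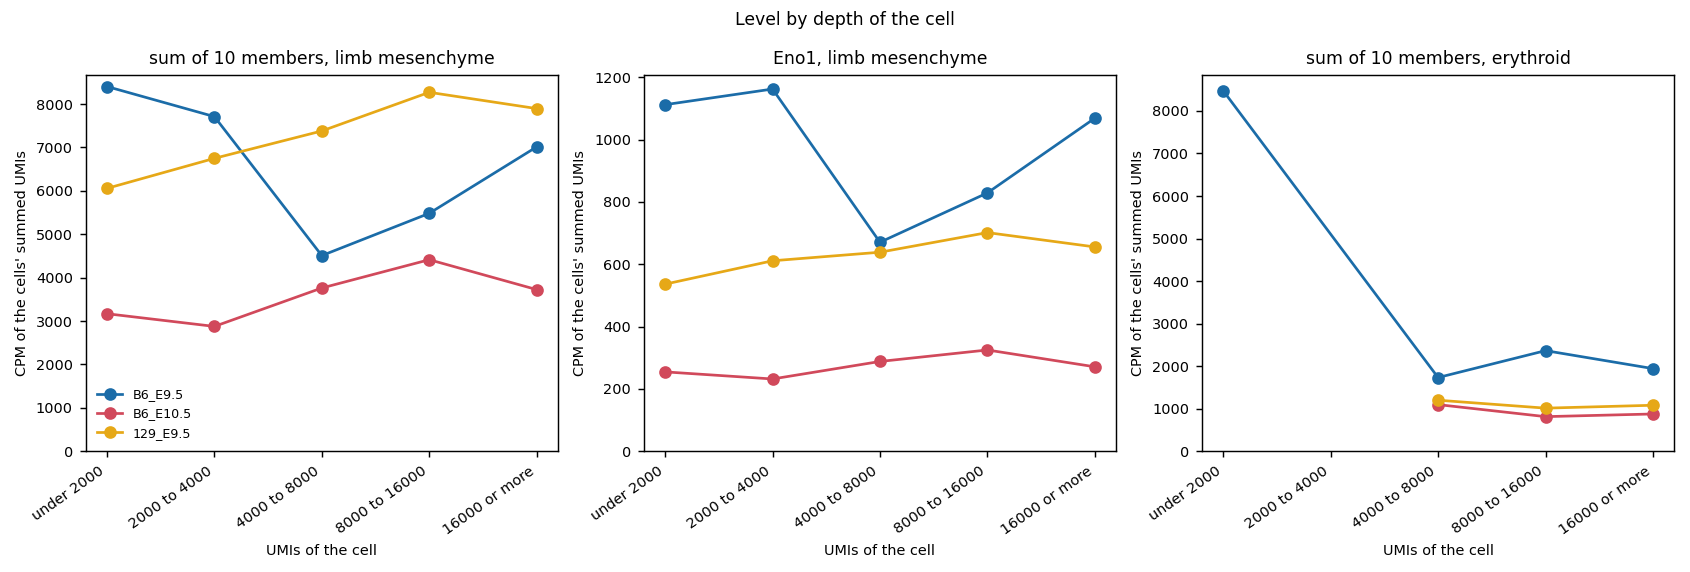
CPM (y axis, linear from 0) of the 10 genes summed in limb mesenchyme, of Eno1 in limb mesenchyme and of the 10 genes summed in the erythroid class, in bins of UMIs per cell (x axis) for each library; bins under 20 cells are not drawn. In mesenchyme B6_E9.5 falls to 4508 CPM in cells of 4000 to 8000 UMIs and lies above B6_E10.5 in every bin, and its erythroid cells under 2000 UMIs lie at 8473 CPM against 1942 CPM in those of at least 16000 UMIs.

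The erythroid class had the lowest summed level of the 10 genes in each library, 3166, 883 and 1048 CPM. Haemoglobin made up 31.9, 51.3 and 52.1% of its UMIs, and without haemoglobin in the total the sums were 4647, 1814 and 2186 CPM, still the lowest. The B6_E9.5 value rested on shallow cells. The B6_E9.5 cells under 2000 UMIs held 8473 CPM, close to the mesenchymal cells of that depth, and the 157 deeper cells 2055 CPM. Over all cells, 8 of 8 members above the floor were at least 1.5-fold lower at E10.5, where 49.6% of 3212 genes were, and 0 were as much higher, against 1.99%. Without haemoglobin in the total Slc2a1 (ratio 0.705) and Gpi1 (0.799) were no longer past 1.5-fold. The median log2 ratio over all genes then moved from -0.58 to -0.10, so that the share of 49.6% does not apply to that total. Among cells of at least 2000 UMIs, Eno1 was at 209, 62.7 and 70.1 CPM in the 3 libraries and Pkm at 288, 107 and 106 CPM. Against 129_E9.5, 1 of 8 members (Slc2a1) was at least 1.5-fold lower in B6_E10.5, where 10.6% of 2818 genes were, and 0 higher, against 4.15%. Between the E9.5 libraries 7 of 8 members were lower in 129_E9.5 than in B6_E9.5, against 36.7% of 3307 genes, and 0 higher, against 3.75%. Ldha, at 878, 294 and 357 CPM over all cells, was the member with the highest CPM in this class in every library.

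Shares within an isoenzyme family were then compared between classes and libraries, since these do not depend on the total of the class. Ldhb was 2.48% (95% interval 2.40 to 2.56) of the UMIs of Ldha and Ldhb in the mesenchyme of B6_E9.5, 30.6% (95% interval 30.3 to 31.0) in B6_E10.5 and 7.71% (95% interval 7.57 to 7.85) in 129_E9.5. In muscle progenitors it was 2.95, 24.2 and 7.49%, in ectoderm 2.65, 16.0 and 6.66% and in endothelium 0.279, 7.32 and 3.33%. The share was highest in B6_E10.5 and lowest in B6_E9.5 in these 4 classes. At E10.5 the 4 classes lay apart in the order mesenchyme, muscle progenitors, ectoderm and endothelium, beyond their counting intervals. At E9.5 mesenchyme, muscle progenitors and ectoderm lay between 2.48% and 2.95% in B6_E9.5 with overlapping intervals. In 129_E9.5 ectoderm (95% interval 6.23 to 7.11) lay below mesenchyme, as at E10.5, and the interval of muscle progenitors (6.95 to 8.05) overlapped both. Endothelium was below these classes in both E9.5 libraries.

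Slc2a3 was 64.3, 79.3 and 72.2% of the UMIs of both transporters in ectoderm, and 18.3, 15.4 and 12.2% in mesenchyme. Endothelium, with 13.5, 11.4 and 8.50%, was lower still, though both transporters were above mesenchyme there. Hk2, the regulated hexokinase of growing cells, was 91.5, 65.7 and 79.4% of Hk1 and Hk2 in mesenchyme, 85.6, 67.2 and 73.4% in muscle progenitors and 82.8, 83.5 and 84.5% in ectoderm. Ectoderm kept its share between stages within counting error while mesenchyme did not. In endothelium Hk2 was 40.3, 25.5 and 26.3% and in erythroid cells 18.5, 9.29 and 5.37%, so that Hk1 prevailed in both.

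Eno3, the enolase of differentiated muscle, was 8.00, 23.9 and 15.4% of the enolase UMIs in muscle progenitors, 4.43, 16.7 and 9.20% in mesenchyme and at most 3.45% in endothelium. Its share was highest in muscle progenitors in 3 of 3 libraries and highest at E10.5 in both of the first classes. The Eno3 level itself in mesenchyme was 45.6, 59.2 and 67.9 CPM, with the lowest value in B6_E9.5, where the share was lowest too. Among the phosphofructokinases, Pfkl, the liver type, made up 91.7, 83.9 and 89.8% in mesenchyme, and Pfkm, the muscle type, 6.91, 14.9 and 8.94% in mesenchyme and 8.33, 18.2 and 12.2% in muscle progenitors. The interval of muscle progenitors in B6_E9.5 (95% interval 5.87 to 11.4) held the mesenchymal value. The Pfkm share was highest in erythroid cells in each library, at 8.67, 19.4 and 13.5%, with intervals that overlapped those of muscle progenitors. Pfkp, the platelet type, reached 10.0, 15.9 and 12.1% in endothelium against 1.41, 1.20 and 1.26% in mesenchyme. Aldoc was at most 0.812% of the aldolase UMIs of Aldoa and Aldoc in any class.

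**Figure D4:**
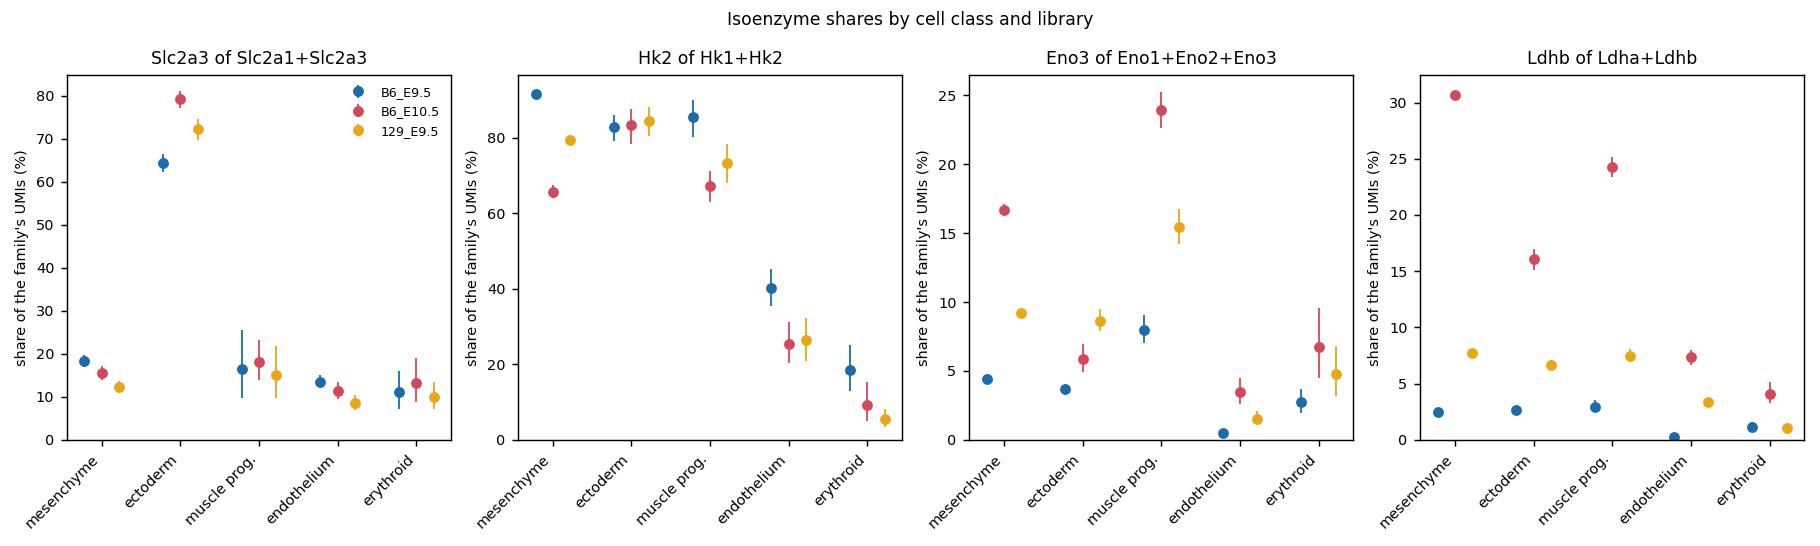
Share (y axis, percent) of Slc2a3, Hk2, Eno3 and Ldhb in the UMIs of their family in the 5 classes (x axis) of the 3 libraries (colours), with exact Clopper-Pearson 95% intervals for counting error. Slc2a3 exceeds 60% in ectoderm alone (64.3 to 79.3%), and Ldhb reaches 30.6% in the mesenchyme of B6_E10.5 against 2.48% in B6_E9.5.

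The other genes of the pathway did not all move with the members. Over all genes tested in mesenchyme, 8.87% of 5685 were at least 1.5-fold lower at E10.5 and 11.6% higher, with a median log2 ratio of 0.02. Of 6 further glycolytic genes above the floor in mesenchyme, 2 were at least 1.5-fold lower at E10.5 and 1 higher, with a median log2 ratio of -0.02. The lower ones were the hexokinase Hk2 (45.3, 20.9 and 34.2 CPM) and the isomerase Tpi1 (518, 342 and 514 CPM), and the higher one was Bpgm (33.0, 51.1 and 41.3 CPM), which makes 2,3-bisphosphoglycerate. Gapdh stood at 1352, 1799.9 and 2720.2 CPM, 1.33-fold higher at E10.5 than in B6_E9.5 in mesenchyme and below 129_E9.5, and has many processed copies. Of 4 glucose and lactate transport genes, 2 were lower and 0 higher: the lactate carriers Slc16a3 (60.4, 24.0 and 67.7 CPM) and Slc16a1 (37.5, 15.5 and 19.2 CPM), while their chaperone Bsg stood at 345, 313 and 303 CPM. Pdk1, the kinase that keeps pyruvate out of the citric acid cycle, stood at 34.8, 13.3 and 20.3 CPM and was 1 of 2 regulators of flux above the floor that was lower. Of 18 genes of pyruvate entry and the citric acid cycle, 0 were lower and 2 higher (Mdh1 with 143, 218 and 236 CPM and the pyruvate carrier Mpc2 with 40.9, 70.4 and 50.9 CPM), with a median of 0.15. The serine pathway, which branches off after the step of Pgk1, had 3 of 7 lower and 0 higher (median -0.54), among them Psat1 at 138, 64.3 and 149 CPM and Mthfd2 at 134, 84.4 and 175 CPM.

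Genes of the hypoxia response outside glycolysis had 4 of 9 lower and 1 higher in mesenchyme (median -0.47). Over all genes there, 8.87% were lower and 11.6% higher (median 0.02). The cytokine Mif stood at 3635, 2079 and 3158 CPM, Higd1a at 369.9, 190.3 and 265 CPM and Bnip3 at 69.4, 42.3 and 48.0 CPM, while Ddit4, an inhibitor of mTOR signalling, stood at 7.15, 52.2 and 9.59 CPM, the higher one. Of MYC and other regulators of these genes, 4 of 5 were lower and 0 higher (median -1.38): Mycn with 185, 71.0 and 86.4 CPM, Lin28b with 103, 31.0 and 64.3 CPM, Lin28a with 84.4, 2.18 and 31.4 CPM and Sp1 with 24.7, 15.8 and 13.8 CPM. For Mycn, Lin28b and Lin28a 129_E9.5 lay between the c57bl6.J libraries. Immediate early and heat shock genes of dissociation stress had 3 of 6 higher and 1 lower (median 0.70) and haemoglobin genes had 5 of 5 lower; their part was not tested. In ectoderm the further glycolytic genes had 2 of 6 lower (Pfkl at 185, 120.5 and 218 CPM and Eno3 at 43.1, 21.7 and 69.9 CPM) and 0 higher (median -0.39), the citric acid cycle 2 of 18 lower and 0 higher (median -0.11), and the MYC list 3 of 5 lower and 0 higher (median -0.97). Muscle progenitors had 3 of 6 further glycolytic genes lower and 0 higher (median -0.17), 0 of 18 citric acid cycle genes lower and 2 higher (median 0.21), and 4 of 8 of the hypoxia list lower and 1 higher (median -0.59). In endothelium, where myeloid markers moved too, 1 of 5 further glycolytic genes was lower and 0 higher (median 0.32), the hypoxia list had 8 of 12 lower and 1 higher (median -0.70) and Pdk1 stood at 107, 35.3 and 125 CPM. Of all genes, 4.98% were lower and 6.46% higher in ectoderm, 11.9% and 7.46% in muscle progenitors, and 10.2% and 9.44% in endothelium. The medians over all genes in these 3 classes were -0.01, -0.07 and -0.06. The pathway lists were chosen with results of these data known.

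Within a class, the 3 libraries allow a test. Cells with and without a UMI of a marker were summed per library and compared with the library as a block. In ectoderm the marker was Fgf8, which labels the apical ectodermal ridge that drives outgrowth of the bud. Cells with Fgf8 had less of both transporters and more of 3 enzymes. Slc2a3 stood at 88.4 against 171 CPM (B6_E9.5), 69.1 against 261 CPM (B6_E10.5) and 83.4 against 209 CPM (129_E9.5) in cells with against without Fgf8, lower in 3 of 3 libraries (log2 fold change -1.31, SE 0.149, edgeR adjusted p = 0.000707). Slc2a1 stood at 53.4 against 90.5 CPM (B6_E9.5), 23.7 against 66.5 CPM (B6_E10.5) and 54.4 against 66.1 CPM (129_E9.5), also lower in 3 of 3 (log2 fold change -0.71, SE 0.17, edgeR adjusted p = 0.0258). Pgk1 was higher in 3 of 3, at 918 against 671 CPM (B6_E9.5), 594 against 483 CPM (B6_E10.5) and 1308 against 871 CPM (129_E9.5) (log2 fold change 0.49, SE 0.0682, edgeR adjusted p = 0.00191). Ldha rose (log2 fold change 0.29, SE 0.058, edgeR adjusted p = 0.0113) and so did Gpi1 (log2 fold change 0.33, SE 0.0935, edgeR adjusted p = 0.0479), both higher in 3 of 3 libraries. That is 3 of 10 members that rose and 2 that fell, against 6.32% and 4.79% of 11016 genes. For Aldoa, Pgam1, Eno1, Pkm and Ldhb the edgeR adjusted p was 0.121 or more. Without 129_E9.5 the edgeR fit called 0 of the members and 73 genes in place of 1224, with 1561 genes at an unadjusted p under 0.05, and DESeq2 on all libraries called the same members except Gpi1.

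Some genes of lactate transport and of the hypoxia list passed the test in the same split, where 6.32% of all genes rose and 4.79% fell. Of 8 transport genes tested, 3 rose, among them Slc16a3 (0.71 on the log2 scale) and Bsg (0.65), and 2 fell, Slc16a1 (-0.71) and the chaperone Emb (-0.80). Of the hypoxia list 7 of 20 rose, among them Bnip3 (log2 fold change 1.33, SE 0.119, edgeR adjusted p = 0.000182), Bnip3l (0.27) and Hif1a (0.51), and 1 fell, Mif (-0.21). The median over the 20 was 0.24 beside -0.01 over all genes tested. Hk2 rose (0.63), and of the serine pathway 3 of 8 fell, among them Phgdh, its first enzyme. Immediate early and heat shock genes rose in 4 of 10, with Jun at 1.34, and their part was not tested. Median depth was 11926 UMIs in cells with Fgf8 and 8707 in those without in B6_E9.5, 5598 and 5805 in B6_E10.5, and 4490 and 4952 in 129_E9.5. With all cells thinned to 2000 UMIs Slc2a1, Slc2a3, Pgk1 and Ldha kept their calls and Gpi1 did not.

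Wnt7a labels dorsal ectoderm and En1 ventral ectoderm. Cells with Fgf8 were not left out of these splits, so that ridge and dorsal or ventral position cannot be told apart. Slc2a1, Slc2a3 and Pgk1 had log2 fold changes of -0.71, -1.31 and 0.49 with Fgf8, opposite in sign to those with Wnt7a. In cells with Wnt7a, Slc2a1 stood at 90.1 against 63.8 CPM (B6_E9.5), 78.9 against 51.6 CPM (B6_E10.5) and 85.7 against 54.1 CPM (129_E9.5) and was higher in 3 of 3 libraries (log2 fold change 0.56, SE 0.0983, edgeR adjusted p = 0.000862). Slc2a3 rose as well (log2 fold change 0.31, SE 0.0886, edgeR adjusted p = 0.0336; higher in 3 of 3), and Pgk1 fell (log2 fold change -0.24, SE 0.0719, edgeR adjusted p = 0.046; lower in 2 of 3). These were 2 members up, against 3.85% of 10960 genes, and 1 down, against 4.8%. In cells with En1 both transporters fell, with Slc2a1 at 59.3 against 81.6 CPM (B6_E9.5), 37.9 against 67.3 CPM (B6_E10.5) and 53.2 against 65.2 CPM (129_E9.5) (log2 fold change -0.52, SE 0.108, edgeR adjusted p = 0.0171) and Slc2a3 at -0.41 on the log2 scale (edgeR adjusted p = 0.0178). These were 2 members down, against 0.782% of 10999 genes, and 0 up, against 0.709%. The chaperone Emb went with the transporters in these splits, at 0.89 with Wnt7a and -0.80 with En1. Depth moved with both markers: the median of cells with Wnt7a was 13182 against 9541 UMIs in B6_E9.5 and 6449 against 4426 UMIs in 129_E9.5. Within the libraries the log2 fold of Slc2a1 with Wnt7a was 0.50, 0.61 and 0.66, and that of Slc2a3 was 0.62, 0.07 and 0.19. After thinning to 2000 UMIs, which cut the Wnt7a cells of B6_E9.5 from 236 to 79, or without B6_E9.5, neither transporter passed in either split by edgeR. Without B6_E9.5 the log2 fold with Wnt7a was 0.64 for Slc2a1 and 0.13 for Slc2a3, and with En1 -0.56 and -0.32. Without B6_E9.5, B6_E10.5 or 129_E9.5 the Wnt7a fit called 88, 1646 or 336 genes in place of 948, and the En1 fit 33, 489 or 182 in place of 164. DESeq2 called Slc2a1 in the Wnt7a split and 0 members in the En1 split. Of the 10 stress genes tested, 6 fell and 1 rose with Wnt7a, and 3 of 7 haemoglobin genes fell; their part was not tested.

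**Figure D5:**
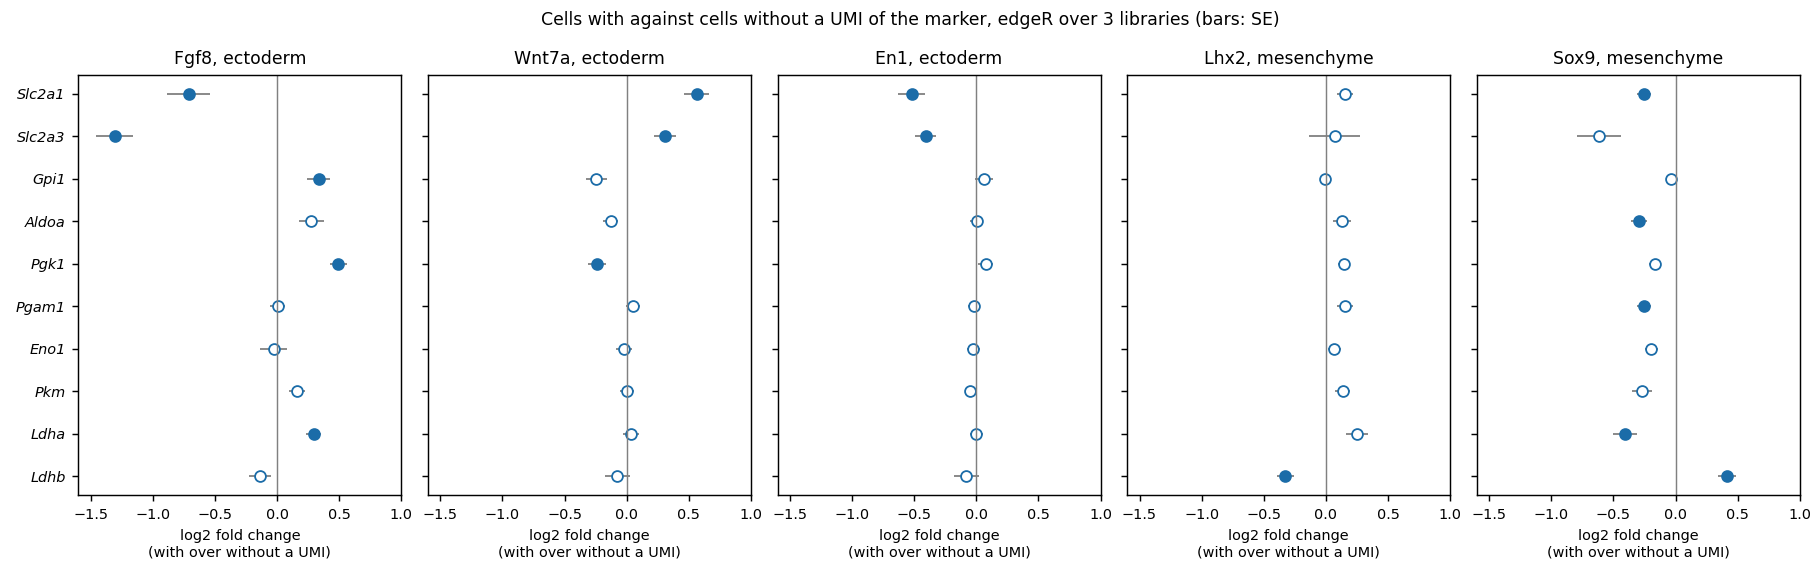
Log2 fold change (x axis) with its standard error of each of the 10 genes (y axis) between cells with and without a UMI of Fgf8, Wnt7a or En1 in ectoderm and of Lhx2 or Sox9 in limb mesenchyme, over 3 libraries; filled points passed an edgeR adjusted p of 0.05. Slc2a3 lies at -1.31 in the Fgf8 panel, and Ldhb lies to the left in the Lhx2 panel (-0.33) and to the right in the Sox9 panel (0.42).

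In limb mesenchyme, Ldhb was the member that moved in both splits, in opposite directions. Lhx2 labels distal mesenchyme under the ridge. Ldhb stood at 34.0 against 40.5 CPM (B6_E9.5), 214 against 320.3 CPM (B6_E10.5) and 147 against 170.4 CPM (129_E9.5) in cells with against without Lhx2, lower in 3 of 3 libraries (log2 fold change -0.33, SE 0.0668, edgeR adjusted p = 0.0184). It was the 1 member of 10 that fell, against 6.11% of 13001 genes, and 0 rose, against 5.14%. Leaving out any 1 library, thinning and DESeq2 left Ldhb below an adjusted p of 0.05 in each case. Of other genes of the pathway, Eno3 fell (log2 fold change -0.82, SE 0.0525, edgeR adjusted p = 8.60e-05) and Hk2 rose (0.36), 4 of 8 serine pathway genes rose with Mthfd2 at 0.32, and Mycn rose (0.57). Haemoglobin genes, 3 of 7 of which fell, moved with the split, and the median depth in B6_E9.5 was 17299 UMIs in cells with Lhx2 against 2443 in those without. Genes called in all fell from 1463 to 872 without B6_E9.5, where Ldha and Pgk1 rose too, and to 408 without 129_E9.5.

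Sox9 labels cartilage progenitors. The split took every mesenchymal cell with at least 1 Sox9 UMI, and whether these cells were condensing was not tested. Cells with Sox9 had more Ldhb, at 40.7 against 35.2 CPM (B6_E9.5), 353 against 224 CPM (B6_E10.5) and 190.1 against 148 CPM (129_E9.5) and higher in 3 of 3 libraries (log2 fold change 0.42, SE 0.0733, edgeR adjusted p = 0.0173). They had less Ldha, at 1340.4 against 1449 CPM (B6_E9.5), 478 against 811 CPM (B6_E10.5) and 1561 against 1914 CPM (129_E9.5) and lower in 3 of 3 (log2 fold change -0.40, SE 0.0956, edgeR adjusted p = 0.0477). Aldoa (log2 fold change -0.29, SE 0.0631, edgeR adjusted p = 0.0367), Pgam1 (log2 fold change -0.25, SE 0.0569, edgeR adjusted p = 0.0418) and Slc2a1 (log2 fold change -0.26, SE 0.058, edgeR adjusted p = 0.0433) also fell, each lower in 3 of 3 libraries. That is 1 of 10 members up, against 2.07% of 13213 genes, and 4 down, against 2.21%. Eno1 (-0.19 on the log2 scale, adjusted p = 0.0749), Pkm (-0.27, 0.0859), Pgk1 (-0.17, 0.0585) and Slc2a3 (-0.61, 0.0797) were lower in 3 of 3 libraries as well and did not pass by edgeR. Of 13 other glycolytic genes 2 fell, Tpi1 (-0.28) and Pfkl (-0.31), and 1 rose, Eno3 (0.37); Slc16a3 (-0.65), Pdk1 (-0.40) and Mycn (-0.57) fell. For the 5 called members the difference was largest within B6_E10.5, the library with most Sox9 cells (6990, against 1241 in B6_E9.5 and 1422 in 129_E9.5). Without 129_E9.5 the edgeR fit called 0 members and 136 genes in place of 565, without B6_E9.5 it called 9 members and 1296 genes, and without B6_E10.5 it called 8 members and 879 genes. Thinned to 2000 UMIs the edgeR fit called 674 genes and 7 members, without Slc2a1, and in cells of at least 2000 UMIs Ldha missed the threshold (edgeR adjusted p = 0.0523). The median cell with Sox9 held 17175, 5646 and 7882 UMIs, and the median cell without it 7068, 5152 and 7387. In data simulated for the Lhx2 fit, in the same mesenchymal cells, false calls were a larger share of all calls than the threshold states; no such simulation was made for Sox9, whose adjusted p-values here lie just under it. DESeq2 called Ldhb, Aldoa and Pgam1 in the same direction, added Eno1, Pkm and Pgk1 as lower, and did not call Ldha or Slc2a1.

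Over the 12 sums of the 4 classes other than erythroid in 3 libraries, the levels of Pgk1 and Pkm had a Pearson correlation of 0.94 on the log2(CPM + 1) scale, those of Aldoa and Ldha 0.91, and those of Eno1 and Ldhb -0.68. Eno1 and Gpi1 had 0.02. Sums of 1 library share its depth and free RNA, and these are descriptions over 12 points. Among 5766 genes of at least 20 CPM outside the members, the 5 whose pattern was most like the sum of the 10 were Vps36 (0.95), Cfap298 (0.93), Rexo2 (0.92), Arpc5l (0.92) and the glycolytic Tpi1 (0.92). Most like Slc2a3 were S100a6 (0.98), Ctnnb1 (0.97) and Agap3 (0.96), most like Eno1 were its copy Eno1b (0.97), Hist1h2ap (0.95) and Smim15 (0.94), and most like Ldhb were Nt5c2 (0.96), Sugp1 (0.94) and Tmem39b (0.94).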

How the data were processed

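Forelimb bud cells were dissociated and sequenced with a droplet kit that tags the 3′ end of each transcript, per the labels' protocols, so that a gene's count does not depend on its length. The authors deposited 1 matrix of raw UMI counts per gene and cell with a table of cells that gives library, barcode and cluster number, per the file headers. Cell Ranger 3 and the genome build mm10 are named in the submitters' processing notes, and no source used here says how the clusters were made. Reads of near-identical copies of Eno1, Aldoa, Pgam1, Ldha, Pgk1 and Gapdh may have been split or left out.

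UMIs were summed per class and library and divided by the class total (Python 3.11.15, numpy 2.4.6, scipy 1.17.1, pandas 2.3.3). Totals were 93029510 to 124388358 UMIs per library. Each group is 1 library, so that stage and strain have no test. Intervals are exact Poisson, conditional binomial or Clopper-Pearson at 95% and cover counting error only. A gene was counted as lower or higher at 1.5-fold between libraries and at 2-fold in 3 of 3 libraries between classes, above a floor of 20 CPM as the mean and 50 UMIs as the sum of the groups compared. In the 5 splits of cells by a marker, sums were tested with the quasi-likelihood test of edgeR 4.0.16 in R 4.3.3, with TMM factors, filterByExpr and the library as a block, and adjusted by Benjamini-Hochberg over all genes tested, with a threshold of 0.05; DESeq2 1.42.0 was an alternative. The labels do not say that libraries of these groups come from separate litters. With the library as a block, p-values rest on how the difference between cells with and without the marker varied over these libraries. The Fgf8 and Lhx2 fits were tested on simulated data, where false calls made up a larger share of all calls than the threshold in the Lhx2 fit. The simulated libraries differed in depth only, unlike the real ones. The Wnt7a, En1 and Sox9 fits were not simulated. No doublet caller was run, and an alternative left out cells with at least 3 UMIs of another class's markers (50 for erythroid markers).

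The members and all gene lists were chosen with earlier results of these data known. All 10 members are named in each comparison. Of other lists, the 3 genes with most UMIs in mesenchyme and up to 4 that passed were open to naming, and for likeness the 5 nearest to the sum and the 3 nearest to Slc2a3, Eno1 and Ldhb, with pattern measured on log2(CPM + 1). The window of 4000 to 8000 UMIs and the bins of depth were added after the data were seen. Protein sequences were not used here.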

Additional observations from a re-analysis of the deposited data

Results flagged for a closer look

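Slc2a3 stood out for opposite directions between classes: its CPM in B6_E10.5 was 1.66 times that in B6_E9.5 in ectoderm and 0.661 times in endothelium, with 95% counting intervals on opposite sides of 1. The difference between the classes was not tested, since each stage is 1 library. Under the alternatives run the ratio stayed between 1.32 and 2.37 in ectoderm and between 0.646 and 0.813 in endothelium. Gpi1 was flagged in the same way, with a ratio of 1.45 in endothelium and 0.571 in the erythroid class, and this difference was not tested either. The endothelial ratio lay between 1.42 and 2.24 under the alternatives. The erythroid ratio was 0.795 in cells of at least 2000 UMIs and 1.56 in cells of 4000 to 8000 UMIs, so that its direction did not hold.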

How the results depend on the processing

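No paired analysis was possible for stage and strain because each group is 1 library. TMM factors or DESeq2 size factors moved the median log2 ratio of all genes between stages from 0.02 to -0.13 or -0.12 in mesenchyme, and from -0.58 to 0.04 in both cases in the erythroid class; no member's ratio crossed 1. In cells of 4000 to 8000 UMIs the members at least 1.5-fold lower at E10.5 were 2 in mesenchyme, 2 in ectoderm and 5 in the erythroid class, and ratios reversed for Aldoa in muscle progenitors (1.03), Gpi1 (1.56) and Pkm (1.26) in the erythroid class; ratios that were under 1.5-fold over all cells crossed 1 for Pkm in mesenchyme (1.04), ectoderm (1.18), muscle progenitors (1.10) and endothelium (1.28), Slc2a1 (1.35) and Gpi1 (1.09) in ectoderm and Pgk1 in muscle progenitors (1.01). The cause was not tested. Without cells holding markers of another class the counts were 3 in ectoderm and 2 in endothelium, and the Slc2a3 share in ectoderm was 59.5% in B6_E9.5 and 82.2% in B6_E10.5. A 2-fold threshold left Eno1 and Ldha as lower in mesenchyme, ectoderm and muscle progenitors, and Eno1 in endothelium. The counts of members in the depth window and without cells holding other markers stand without a share over all genes. With all genes of at least 1 UMI the background of lower genes was 10.1% in ectoderm and 19% in muscle progenitors. Members 2-fold from mesenchyme in the erythroid class numbered 0 by the mean over cells, 2 with TMM, 1 with DESeq2 size factors and 4 to 8 with 1 library left out (8 without B6_E9.5). These erythroid counts too have no share over all genes beside them.

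In the marker splits, with no replicate block (the library left out of the model), the Fgf8, Wnt7a, En1, Lhx2 and Sox9 fits by edgeR called 79, 2, 1, 0 and 0 genes and 1, 0, 0, 0 and 0 members, with 249 and 58 genes at an unadjusted p under 0.05 in the last 2. Leaving out 1 library at a time, genes called ranged from 73 to 1567 (Fgf8), 33 to 489 (En1), 88 to 1646 (Wnt7a), 408 to 1642 (Lhx2) and 136 to 1296 (Sox9), and members from 0 to 7 (Fgf8), 0 to 5 (Wnt7a), 0 to 2 (En1), 1 to 3 (Lhx2) and 0 to 9 (Sox9). DESeq2 called 530, 227, 43 and 959 genes with Fgf8, Wnt7a, En1 and Lhx2, with 1 member for Wnt7a and 0 for En1. Cells thinned to 2000 UMIs gave 576, 101, 34, 308 and 674 (Sox9) genes, again with 1 and 0 members for Wnt7a and En1 and with 7 for Sox9. With no filter En1 gave 350 genes. Of the main results under an alternative, 164 values stayed on their side and 60 moved. Slc2a3 in mesenchyme and muscle progenitors, with under 20 CPM, is limited by depth.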
